A study of Drosophila melanogaster with 2 samples.

Results

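The genes described here encode 3 cyclin-dependent kinases (Cdk1, Cdk2 and Cdk4), the Cdc25 phosphatases string (stg) and twine (twe), the inhibitory kinases Wee1 and Myt1, and the inhibitors dacapo (dap), roughex (rux) and tribbles (trbl). They are 10 of 13945 protein-coding genes in the annotation, and they were chosen by function. For each gene, every region of E2f1-eGFP binding was collected whose summit, the position of highest signal, lay inside the gene or within 1 kb of it. The conservative set of the deposited data held 10 such regions among 4439. The study has 1 group: chromatin of whole *Drosophila melanogaster* embryos, strain E2f1-GFP, collected at 0 to 24 hours of age, in 2 biological replicates. The flies carry an insertion from which E2f1 is made as a fusion with a green fluorescent tag (eGFP), and sonicated fragments of 200 to 800 bp were precipitated through the GFP tag and sequenced (ChIP-seq). The antibody field of the labels names E2f1, while their description names GFP. The embryos span all of embryogenesis and all tissues, so a region cannot be assigned to a stage or to a cell type.

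A cyclin-dependent kinase works only when bound to a cyclin, and its output is set by phosphorylation and by bound inhibitors. Wee1 and Myt1 place inhibitory phosphates on Cdk1, and Cdc25 phosphatases take them off, which triggers mitosis. In the fly embryo, pulses of stg transcription time the divisions after cellularization, while dap stops Cdk2 with cyclin E when cells leave the cycle. E2f1 with its partner Dp activates genes of the transition into S phase, and the cyclin E gene is a well-known target of it.

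The motifs searched, on both strands of every region, were the E2F consensus in its 4 spellings (TTGGCGC or TTGCCGC, or else TTCGCGC or TTCCCGC), the DNA replication-related element TATCGATA, the E-box CACGTG and the cell cycle homology element TTTGAA. Overlapping matches were each counted, and the palindromes TATCGATA and CACGTG were counted once per place. The sequences below come from the regions that carried the results at Cdk1, Cdk2, trbl and stg. They were read from the RefSeq assembly of build dm6, on the plus strand, with each match to one of these motifs in capitals. The Cdk2 sequence, chr3R:20735487-20735622, ends just before the transcription start site (TSS) of Cdk2, a gene on the plus strand. The Cdk1 sequence, chr2L:10386362-10386661, lies between Cdk1 on the minus strand and the gene for the mitochondrial ribosomal protein mRpS7. It ends just before the TSS of mRpS7 and leaves out the end of the region, which lies past that TSS. The trbl sequences, chr3L:20399652-20399951 and chr3L:20398303-20398602, are the centres of the highest and the second highest region in the introns of trbl, a gene on the minus strand. The stg sequence, chr3R:29251355-29251654, lies beyond the 3′ end of stg, also on the minus strand.
Cdk2 start site: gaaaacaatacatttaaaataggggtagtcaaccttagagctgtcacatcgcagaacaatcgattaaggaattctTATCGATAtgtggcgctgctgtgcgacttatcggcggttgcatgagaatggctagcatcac
Cdk1 upstream: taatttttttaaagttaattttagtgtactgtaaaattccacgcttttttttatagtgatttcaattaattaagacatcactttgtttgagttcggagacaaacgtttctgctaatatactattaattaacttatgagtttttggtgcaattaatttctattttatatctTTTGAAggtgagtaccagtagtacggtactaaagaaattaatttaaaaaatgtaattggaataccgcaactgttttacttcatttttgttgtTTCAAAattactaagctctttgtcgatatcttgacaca
trbl intron, highest region: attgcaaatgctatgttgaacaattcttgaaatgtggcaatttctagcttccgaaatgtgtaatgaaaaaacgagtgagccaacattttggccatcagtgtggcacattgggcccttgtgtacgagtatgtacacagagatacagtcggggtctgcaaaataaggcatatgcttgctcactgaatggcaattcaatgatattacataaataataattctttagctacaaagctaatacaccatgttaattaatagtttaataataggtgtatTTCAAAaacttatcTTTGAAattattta
trbl intron, second region: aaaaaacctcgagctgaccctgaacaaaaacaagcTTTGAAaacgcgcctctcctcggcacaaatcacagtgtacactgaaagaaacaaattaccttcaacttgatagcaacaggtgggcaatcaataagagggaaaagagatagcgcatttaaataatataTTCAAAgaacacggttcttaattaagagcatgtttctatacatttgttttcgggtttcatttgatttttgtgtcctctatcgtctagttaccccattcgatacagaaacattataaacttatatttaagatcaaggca
stg downstream: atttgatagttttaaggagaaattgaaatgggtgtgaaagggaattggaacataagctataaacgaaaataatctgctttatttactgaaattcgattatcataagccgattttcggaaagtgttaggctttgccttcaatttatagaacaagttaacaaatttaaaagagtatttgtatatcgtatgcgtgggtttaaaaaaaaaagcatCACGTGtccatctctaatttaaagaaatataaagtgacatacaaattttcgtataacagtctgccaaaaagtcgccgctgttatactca

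None of these 5 sequences held a match to the E2F consensus, which was found in 14.8% of all regions of the conservative set. The dap region, which held the consensus, is not among them. The Cdk2 sequence had the DNA replication-related element, and the Cdk1 and trbl sequences had 2 copies each of TTTGAA counting both strands. The stg sequence had the E-box, found in 3.22% of all regions of the conservative set. A match is a description of the letters and not a measured binding site.

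The Cdks all carried a region, the inhibitory kinases carried none, and the other groups were split. In the conservative set a region was found at 3 of 3 Cdks, at 1 of 2 Cdc25 genes, at 0 of 2 inhibitory kinases and at 2 of 3 inhibitors. That made 6 of 10 genes, against 27.4% of all protein-coding genes. Among the 6102 protein-coding genes from 1524 to 5979 bp long, the range of these 10 genes, 27.4% carried one as well. The larger set gave 5 of 10 genes, against 30.1% of all genes, the set of replicate 1 gave 5, against 24.4%, and that of replicate 2 gave 5, against 22.4%. Cdk1, Cdk2, Cdk4, dap and trbl were in all 4 sets. Counting only presence in both replicate sets gave these same 5 of 10 genes, against 18.9% of all genes. The stg gene was in the conservative set alone. Wee1, Myt1, twe and rux were in none of the 4 sets. No test was made over these counts, since the genes were chosen with earlier results of these data known and the data hold no second condition.

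**Figure D1:**
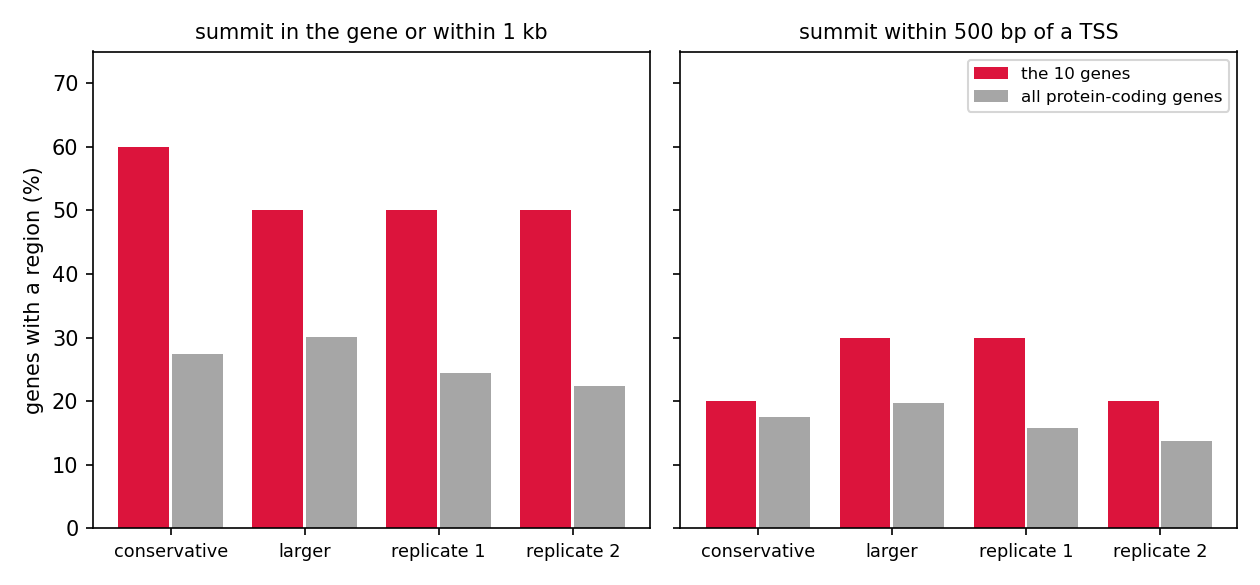
Percent of genes with a region in each of the 4 thresholded sets (x axis), for the 10 genes (red) and for all 13945 protein-coding genes (grey). The left panel counts summits in the gene or within 1 kb, where the 10 genes stand at 60% in the conservative set and 50% in the others, against 22.4% to 30.1% of all genes; the right panel counts summits no farther than 500 bp from a TSS, where the 10 genes stand at 20% or 30%.

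At promoters the 10 genes stood closer to the rest. A summit within 500 bp of a TSS was found at 2 genes in the conservative set, Cdk1 and Cdk2, against 17.6% of all genes. The larger set had 3, against 19.7%, and the set of replicate 1 had 3, against 15.8%; the third in each was dap. In the set of replicate 2 there were 2, against 13.8%. Of the 10 regions of the conservative set, 3 lay upstream of a gene (1 each at Cdk1, Cdk2 and Cdk4), 5 inside dap or trbl, and 2 downstream (1 each at stg and trbl). In 5 of the 10 the nearest TSS belonged to another gene.

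**Figure D2:**
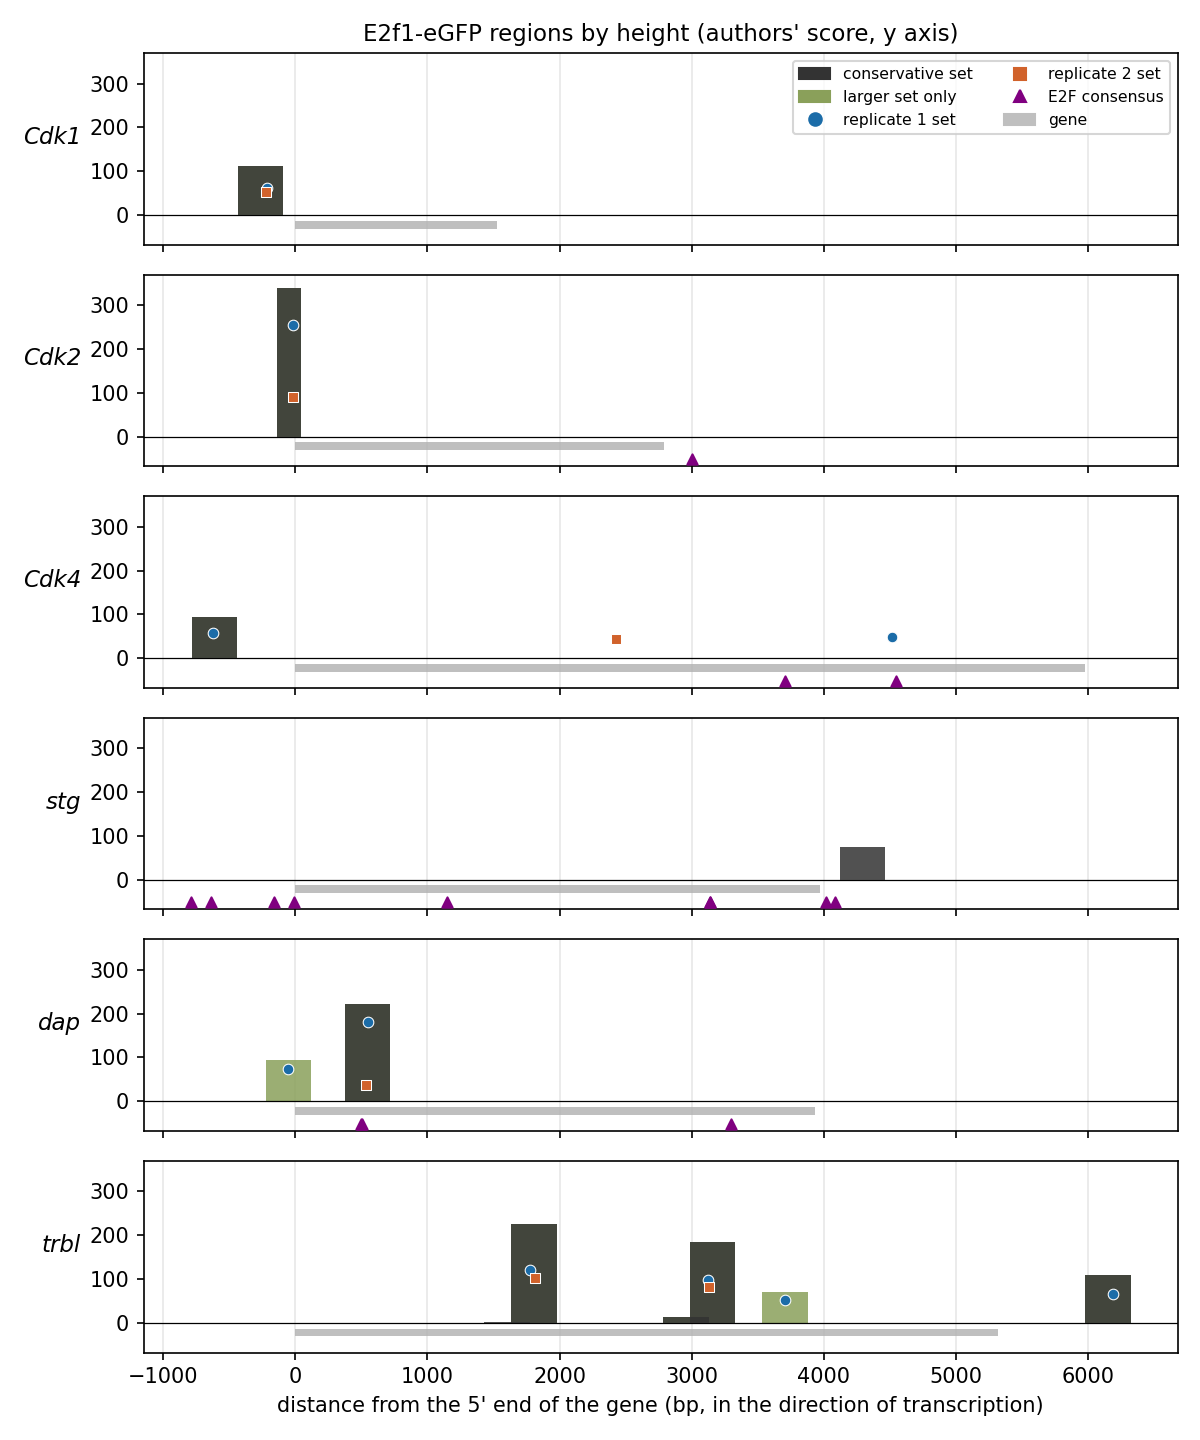
Regions at the 6 genes of the conservative set, by distance in bp from the 5′ end of each gene (x axis) and by height, the authors' score (y axis). Dark bars are regions of the conservative set, and green bars those found only in the larger set. Circles and squares are the summits of replicates 1 and 2, triangles matches to the E2F consensus, and grey bars the genes. The Cdk2 region sits at the TSS, and those of trbl lie in its introns and beyond its 3′ end. Of the 3 triangles at dap, 2 lie under its highest region and the third in its 3′ UTR, outside every set.

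Cdk2, the kinase that drives S phase with cyclin E, had the highest region of the 10 genes and the one nearest to a start site. The gene lies on chromosome 3R, 20735623 to 20738414, plus strand (FBgn0004107, 1 TSS). Its region ran from 20735487 to 20735663 with the summit 14 bp upstream of the TSS. Its height was 339.33, rank 400 of 4439, which is higher than 91.0% of the set; heights are the authors' scores and are ranked only within a list. The set's median height was 112.56. In the set of replicate 1 the Cdk2 region had a height of 253.74 (rank 223 of 3779), and in the set of replicate 2 a height of 90.41 (rank 1034 of 3280), with summits 1 bp apart. The DNA replication-related element, a site bound by the factor DREF in many fly replication genes, lay 43 bp upstream of the summit. That element was found in 4.60% of all regions of the set, 204 of 4439. The single match to the E2F consensus at Cdk2 lay 3000 bp downstream of the TSS, in a coding exon of the neighbouring gene CG17267 and outside every thresholded region.

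Cdk1, the mitotic kinase, had a region of middling height in the conservative set, and it lay nearer to the neighbour of Cdk1. The gene lies on chromosome 2L, 10384739 to 10386262, minus strand (FBgn0004106, 1 TSS). The region ran from 10386355 to 10386698, with its summit in intergenic sequence and its end past the TSS of mRpS7. The summit was 265 bp upstream of the Cdk1 TSS and 135 bp from that of mRpS7. The height was 112.02, rank 2237, close to the median of the set. In replicate 1 the height was 62.32 (rank 2467 of 3779) and in replicate 2 it was 51.50 (rank 2201 of 3280), with summits 5 bp apart. These heights were higher than 34.7% and 32.9% of their sets. The replicate summits lay 216 and 221 bp from the TSS of Cdk1, and 184 and 179 bp from that of mRpS7. The region was AT-rich, with a GC content of 27.3%; over the regions of the 10 genes the median was 35.5%, against 37.3% over all regions. It held 2 copies of TTTGAA, a hexamer present in 39.5% of all regions.

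Cdk4, the partner of cyclin D that phosphorylates the retinoblastoma protein Rbf, was marked at different places in the 2 replicates. The gene lies on chromosome 2R, 16579470 to 16585448, plus strand (FBgn0016131, 5 TSSs). The conservative and the larger set held 1 region, from 16578686 to 16579029, with a height of 92.88 (rank 2864 in the conservative set) and its summit 612 bp upstream of the nearest TSS. None of the motifs searched was found in it. In the set of replicate 1 the upstream region had a height of 56.75, and a region in an intron had a height of 49.04 and a TTGGCGC 29 bp from its summit. In the set of replicate 2 the only region lay in another intron, 1066 bp downstream of a TSS, with a height of 42.92. At the upstream place replicate 2 had a candidate, a region of its full ranked list, with a height of 35.34 and an irreproducible discovery rate (IDR, the authors' global estimate of how often regions of that rank or better would not recur between 2 inputs) of 0.0173. That value is above the 0.01 at which the sets end, so Cdk4 counts as present in both replicates only by gene and not by region.

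String, the Cdc25 phosphatase whose pulses trigger embryonic mitoses, had 1 region, and it was weak. The gene lies on chromosome 3R, 29251826 to 29255800, minus strand (FBgn0003525, 2 TSSs). The region from 29251333 to 29251676 is intergenic, with its summit 321 bp beyond the 3′ end of stg and 1054 bp from the nearest TSS, that of SP1029. Its height of 73.76 had rank 3663, higher than 17.5% of the set. Its q-like value, the significance estimate of the authors' region caller, was 0.0482 and its IDR 0.00782. In the ranked list of the larger set the same region had an IDR of 0.0160 and so was left out. Replicate 1 had only a candidate there, with a height of 44.55 and an IDR of 0.0342. Replicate 2 had a candidate of height 24.59 and IDR 0.288, with a summit 192 bp from that of the conservative set.

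The stg gene also had the most matches to the E2F consensus, 9 of the 21 found in the 10 genes and their 1 kb flanks, and none of these 9 lay in a thresholded region. A pair of TTGGCGC matches lay 35 and 103 bp beyond the edge of the downstream region. They were 17 and 85 bp from the summit of the replicate 2 candidate, and 191 and 259 bp from that of replicate 1. Another pair lay 10 and 164 bp upstream of a TSS of stg, where the candidate of the conservative ranked list had a height of 10.59. In replicate 1 a candidate of height 19.08 covered the match at 10 bp, and in replicate 2 no candidate covered either. Matches farther upstream, at 639 and 791 bp, lay under candidates of the conservative ranked list as high as 53.75 and 14.70. The highest replicate 2 candidate at stg, of height 32.71 and IDR 0.821, lay 435 bp upstream of a TSS of stg. It was nearest to the TSS of CG45544. Among the other genes, twe had a match 30 bp downstream of a TSS and rux one 401 bp downstream. These windows of 27 bases, on the plus strand of build dm6 with the consensus in capitals, are shown because they are the consensus sites near start sites or near the stg region that the sets did not cover. They are stg at chr3R:29255797-29255823 and chr3R:29255951-29255977, the stg flank at chr3R:29251701-29251727 and chr3R:29251769-29251795, twe at chr2L:16261721-16261747 and rux at chrX:6036848-6036874.
stg, 10 bp upstream: gccactgattTTGGCGCgcgagctttt
stg, 164 bp upstream: ctgaagaactGCGCGAAtctttaagca
stg flank, 35 bp beyond the region: ctcgctttgcGCGCCAAtttcaagttg
stg flank, 103 bp beyond the region: taatgcgcatTTGGCGCcatttgaatg
twe, 30 bp downstream of a TSS: gtcaactttaTTGGCGCctttatcaat
rux, 401 bp downstream of a TSS: ggtgattgccTTGGCGCcacgcacatt

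A consensus match lying wholly within 500 bp of a TSS was found at 3 of the 10 genes, against 45.1% of all protein-coding genes. The matches at dap centred 499 and 502 bp downstream of its TSS cross or lie beyond that limit. The third match at dap lay 3296 bp downstream, in its 3′ UTR and outside every set. The 3 genes with a match wholly within the limit were stg, twe and rux. None of them had a summit within 500 bp of a TSS in any of the 4 sets. Cdk1, Myt1 and trbl had no match in the gene or within 1 kb.

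The dap gene, which encodes the fly member of the p21 and p27 family of Cdk inhibitors, was the one gene with the E2F consensus in a region of the conservative set. The gene lies on chromosome 2R, 9712321 to 9716256, plus strand (FBgn0010316, 1 TSS). The region from 9712698 to 9713041 had its summit in the 5′ UTR, 549 bp downstream of the TSS, with a height of 222.36 (rank 846, higher than 81.0% of the set). TTGGCGC stood on both strands, at 9712817 to 9712823 on the plus strand and 9712820 to 9712826 on the minus strand, so that the copies overlap; their centres were 50 and 47 bp from the summit. Across the conservative set 14.8% of regions held a match, and 4.17% held one within 50 bp of the summit. GC content was 49.4%, the highest of the 10 regions.

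The replicates differed at dap by more than at nearly all other shared regions. The 5′ UTR region had a height of 179.99 in the set of replicate 1 (rank 434, higher than 88.5% of it) and of 37.33 in that of replicate 2 (rank 3006, higher than 8.36%), with summits 13 bp apart. Another region, at the start site itself, was in the larger set (9712099 to 9712442, summit 50 bp upstream of the TSS, height 94.93). It was also in the set of replicate 1 with a height of 73.18. Replicate 2 had a candidate there of height 20.73 and IDR 0.770.

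Tribbles, a pseudokinase that promotes the destruction of String and so holds back mitosis in the invaginating mesoderm, had the most regions. The gene lies on chromosome 3L, 20396288 to 20401609, minus strand (FBgn0028978, 1 TSS), and 5 regions of the conservative set counted for it. Of protein-coding genes with a region, 2.12% had 5 or more, 81 of 3825. The highest, from 20399630 to 20399973, had its summit in an intron 1807 bp downstream of the TSS and a height of 224.99 (rank 827, higher than 81.4%). The second, from 20398281 to 20398624, lay in an intron 3156 bp downstream with a height of 184.58 (rank 1141). Its nearest TSS was that of lncRNA:CR45677, 2602 bp away. The third, from 20395287 to 20395630, lay 829 bp beyond the 3′ end of trbl in an exon of lncRNA:CR45677, whose TSS was the nearest, with a height of 109.73.

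The other regions at trbl were low and not separate calls in the replicates. Their heights were 12.24 and 2.34, with q-like values of 0.951 and 0.955, and each was matched to the same pair of replicate regions as the higher region beside it. In the conservative set 157 of 4439 regions shared both inputs with a higher region in this way. With 1 region kept per pair of inputs, trbl had 3 regions and the 10 genes had 8 in all; 339 of 3823 genes with a region (8.87%) then had 3 or more. The larger set had an extra intronic region from 20397731 to 20398074 with a height of 70.87 and a q-like value of 0.0631, and it lacked the one of height 2.34.

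Both intronic regions of trbl were alike in the replicates. The highest stood at 119.99 in replicate 1 (rank 900) and 101.70 in replicate 2 (rank 858), and the second at 98.32 (rank 1265) and 82.22 (rank 1179). The downstream region was in the set of replicate 1 alone, at 65.22, while replicate 2 had a candidate of 41.27 with an IDR of 0.0129. The extra region of the larger set was likewise in replicate 1 alone, at 51.13, with a replicate 2 candidate of 21.77 and an IDR of 0.173. TTTGAA was found in all 5 trbl regions of the conservative set and in 6 of the 10 regions of these genes, against 39.5% of all regions; the 5 trbl regions overlap in part and are not independent.

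**Figure D3:**
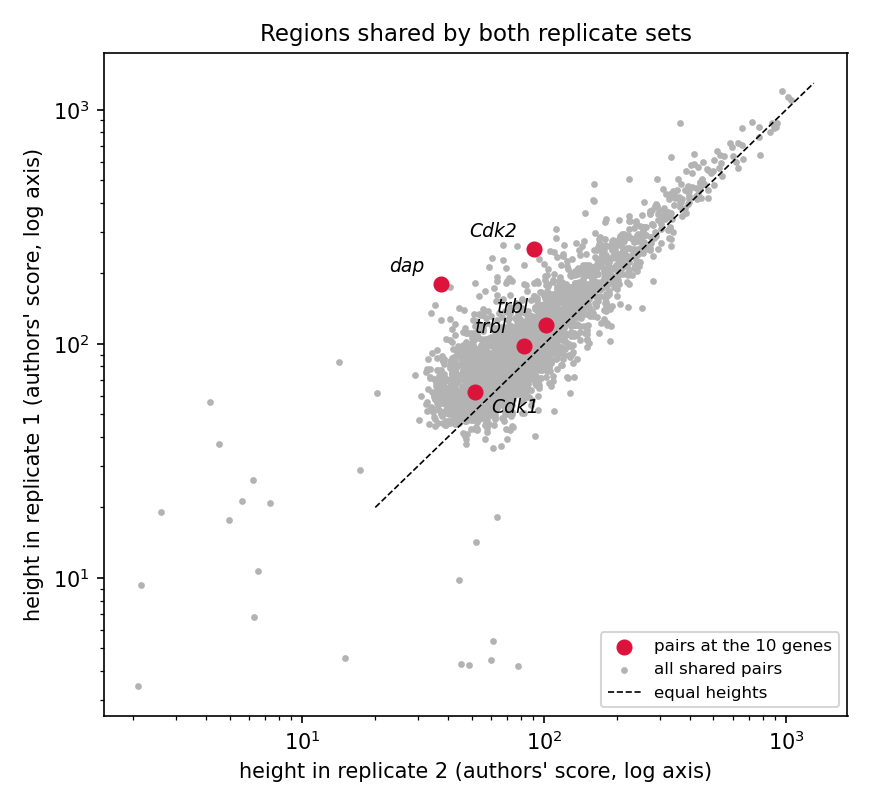
Height in replicate 1 (y axis) against height in replicate 2 (x axis), both authors' scores on log axes, for the 2419 regions shared by the replicate sets (grey) and the 5 shared regions at the 10 genes (red); the dashed line marks equal heights. The points of dap and Cdk2 lie far above the line, while Cdk1 and both trbl regions lie within the main cloud.

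Over the 2419 pairs of shared regions the median log2 ratio of height in replicate 1 over replicate 2 was 0.26, with quartiles of 0.01 and 0.53. Cdk1 had a ratio of 0.28 and the trbl regions had 0.24 and 0.26, all near that median. Cdk2 had 1.49, higher than 98.7% of pairs, and dap had 2.27, higher than 99.8%. At both the replicate 1 region was narrower than the 336 bp most common in its set, 183 bp at Cdk2 and 127 bp at dap. The 688 pairs with such narrow regions had a median ratio of 0.27. The 326 pairs with an E2F consensus had 0.37, against 0.25 in the 2093 pairs without one. The Cdk2 region held no consensus match in any set, while that of dap did. The part of narrow width in the ratios of Cdk2 and dap, and of the consensus in that of dap, was not tested. With 2 replicates the spread at a single region rests on 1 pair of values.

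Of the 10 regions of these genes in the set of replicate 1, 5 overlapped a region of replicate 2 by at least 1 bp, against 67.5% of all its regions. Of the 6 in the set of replicate 2, 5 overlapped one of replicate 1, against 74.9%. Those that recurred from replicate 1 were mostly the high ones. Above the 60th percentile of height in replicate 1, 4 of 4 regions recurred, at Cdk2, dap and trbl; over all regions the share was 88.4% from percentile 60 to 80 and 98.1% above it. Below percentile 60, 1 of 6 recurred, that of Cdk1; over all regions the share was 38.6% up to percentile 20, 45.6% from there to 40 and 66.8% from there to 60.

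The 4 genes outside every set had candidates in the ranked lists, and none of these passed the IDR limit of the sets. Within the conservative ranked list the highest candidates were higher than 92.6% of its regions at rux, 91.8% at Wee1, 89.1% at twe and 76.6% at Myt1. Each was the highest of several candidates, 5 at rux and at Wee1, 3 at twe and 4 at Myt1, which by itself raises its rank. Most of that list, 116095 of 120213 regions, had a q-like value above 0.05. The same shares were not computed for other genes, so these ranks are no sign of binding. The shares ran from 60.9% (Wee1) to 84.7% (rux) in replicate 1, and from 28.6% (Myt1) to 92.6% (Wee1) in replicate 2. Twine, the Cdc25 phosphatase of meiosis and of the maternally driven cycles, lies on chromosome 2L, 16259414 to 16261877, minus strand (FBgn0002673). Its highest candidate in the conservative ranked list had a height of 39.67 and lay in a coding exon of the neighbour EndoGI, while its heights in the replicates were 26.73 (5′ UTR, 73 bp downstream of a TSS) and 17.24. Wee1, on chromosome 2L, 6911090 to 6914138, minus strand (FBgn0011737), had 44.23 in a coding exon with an IDR of 0.498. Replicate 2 had 27.91, also in a coding exon of Wee1. The highest of replicate 1, 18.58, lay elsewhere, 900 bp upstream of the TSS in the 3′ UTR of x16.

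Myt1, on chromosome 3L, 5777476 to 5779591, minus strand (FBgn0040298), had 29.57 in the conservative ranked list and 9.14 in replicate 2, the lowest of the 10 genes in both lists, and 24.99 in replicate 1, where Wee1 was lower. All 3 candidates lay in coding exons of Myt1. Roughex, an inhibitor of Cdk1 with cyclin A, lies on chromosome X, 6035753 to 6037800, minus strand (FBgn0003302). Its highest candidate had a height of 46.05 and an IDR of 0.0544, in an intron 128 bp upstream of a TSS, and the replicates had 27.86 and 19.78. The lowest-ranked gene in the sets of the replicates, dap in replicate 2, stood at 37.33, above every replicate 2 value of these 4 genes.

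**Figure D4:**
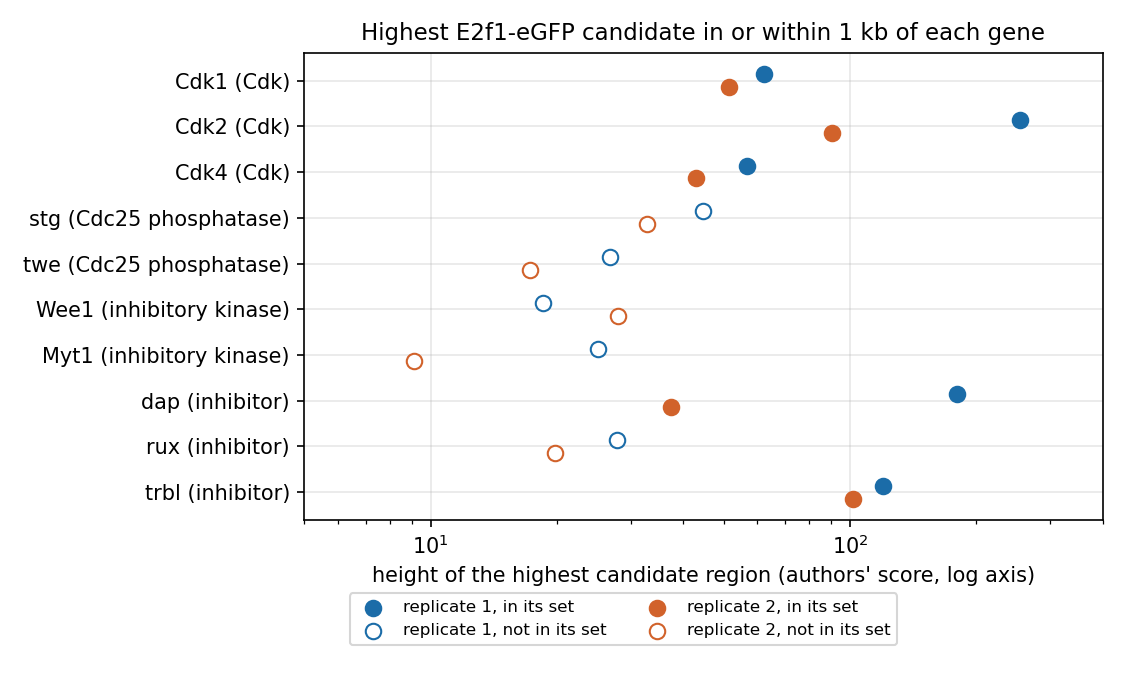
Height of the highest candidate region in the gene or within 1 kb (x axis, authors' score, log axis) for each of the 10 genes (rows), in replicate 1 (blue) and replicate 2 (orange). Filled points passed the IDR of 0.01 and are in that replicate's set; open points did not, and those of twe, Wee1, Myt1 and rux lie at 27.91 or below.

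The regions farthest from their genes and inside the limit of 1 kb were those of trbl at 829 bp and Cdk4 at 612 bp. The nearest summits beyond it were 2673 bp downstream of Cdk1, 3839 bp downstream of rux and 4757 bp upstream of Wee1. The one near Cdk1 had a height of 261.83 and lay 197 bp from the TSS of CG5096. The one near rux had a height of 175.88, higher than 72.2% of the conservative set. Its nearest TSS was that of rux itself, 5348 bp away. The one near Wee1 had a height of 71.96 and lay 152 bp from the TSS of nop5. At stg, whose known control region extends far upstream, the next summit upstream was at 9447 bp, with a height of 64.82.

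Other genes of the pathway were counted in the same way. Of 7 other Cdks, a region lay at 3 in the conservative set, against 27.4% of all protein-coding genes. It lay at 4 in the larger set, against 30.1%, at 4 in replicate 1, against 24.4%, and at 3 in replicate 2, against 22.4%. Cdk12, a kinase of RNA polymerase II, had a height of 207.86 with its summit 145 bp upstream of its TSS, Pitslre had 242.10 and Eip63E 299.87, the last 2337 bp from its nearest TSS. Cdk8 was in the larger set and replicate 1 only, and Cdk5, Cdk7 and Cdk9 were in none. Of 8 cyclins and Cks genes, 2 had a region in each of the 4 sets, a share near the 22.4% to 30.1% of all genes. CycB, the mitotic cyclin B, had a height of 654.85 at 3329 bp downstream of a TSS. CycE, the partner of Cdk2, had 341.49 with 2 matches to the E2F consensus, nearest to the TSS of asRNA:CR44866.

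Nearly all of the listed genes for entry into mitosis and its checkpoint carried a region, 9 of 10 in the conservative set, against 27.4% of all genes, and 10 of 10 in each of the other sets, against 22.4% to 30.1%. In 5 of the 9 the highest region lay nearest to the TSS of a neighbour. These were endos, an inhibitor of the phosphatase PP2A (642.92, nearest Ptip), mei-41, the fly ATR kinase (439.32, TH1), gwl, the Greatwall kinase (183.73, PGS1), tefu, the fly ATM kinase (150.36, Hsc70-4), and mts, the catalytic subunit of PP2A (131.88, Rack1). The regulatory subunit of PP2A, tws, had a height of 133.93 at 3902 bp downstream of its own TSS. The summits at polo, the Polo kinase (113.43, 34 bp upstream), grp, the fly Chk1 kinase (95.91, 297 bp upstream), and aurA, the Aurora A kinase (87.27, 41 bp upstream), lay near their own TSSs. The checkpoint kinase lok, the fly Chk2, was the one missing from the conservative set. These lists were chosen with results of the same data known, and no test was made of the differences between them.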

How the data were processed

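Regions of E2f1-eGFP ChIP-seq in whole embryos were taken from the deposited lists, with 1 group of 2 biological replicates. The 10 genes, the other gene lists and the motifs were chosen with earlier results of these data known. The deposited files give per region a peak height and a scaled IDR score, both scores of the authors' software with no stated rescaling between libraries. They also give the deposited −log10 of a q-like value and −log10 of the global IDR, used here as plain values. The build is dm6, per the labels, with aligner and region caller not given in the sources used here. A control experiment that the labels name as possible was not used here. The files hold no reads, so the depth of each library and its precision are unknown.

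The authors deposited 4 thresholded sets and 4 ranked lists, and each set stops at a global IDR of 0.01. The conservative set (4439 regions) was traced to a ranked list that compares replicate 1 with replicate 2, since 54.8% of first inputs and 53.4% of second inputs matched the replicates' own lists exactly. The inputs of the list behind the larger set (5167 regions) and of the replicates' lists are not named. The sets of replicates 1 and 2 held 3779 and 3280 regions. Their summits were written 1-based and assigned to genes of Ensembl BDGP6.54, release 115, inside the gene or within 1 kb, and to promoters within 500 bp of a TSS. Only regions on chromosome X, chromosome 4 and the arms of 2 and 3 were used for genes and motifs, which left out 4 of the larger set and 14 of replicate 2. Sequence was read from RefSeq's dm6 assembly, where the regions on these chromosomes fell within their lengths.

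Named genes were all 10 genes, the gene with the nearest TSS of their regions and each gene with a region in the other lists; genes without a region, and the neighbours of candidates, of consensus sites and of regions beyond 1 kb, were named after their values were seen. No test was made, since there is 1 group. Gene assignment and motif search were tested on simulated data. The alternatives were the other sets, each replicate alone, other distances, a global IDR of 0.001, other rules for overlap and other motif windows; a q-like value of 0.05 or lower and 1 region per pair of inputs were chosen after seeing the data. The software was Python 3.11.15 with numpy 2.4.6 and pandas 2.3.3, and matplotlib 3.10.9 for figures.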

Additional observations from a re-analysis of the deposited data

How the results depend on the processing

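The count of 6 genes with a region in the gene or within 1 kb was 5 in the larger set and without either replicate, 4 at a global IDR of 0.001, and 2 with summits inside the gene only (dap and trbl). The count of 2 genes with a summit within 500 bp of a TSS was 1 within 200 bp, 4 within 1000 bp, and 1 where the nearest TSS had to be that of the gene (Cdk2). By percentile of height, the highest region of Cdk1 ranged from 32.9 to 34.7 in single replicates (49.6 in the conservative set), Cdk2 from 68.5 to 94.1 (91.0), dap from 8.36 to 88.5 (81.0) and trbl from 73.9 to 76.2 (81.4). Cdk4 had 26.4 in replicate 1 (35.5) and no value without replicate 1, and stg (17.5) had none in either. In all, 21 of 32 alternative values stayed within the limits set and 11 did not. For a count the limit was a factor of 1.5, with that factor itself inside it. For a percentile it was the standard deviation of the 2 single-replicate values. That limit is small where the replicates are alike and large where they differ, as at dap. Cdk4 had a value in 1 replicate only and was counted as outside it. The tally is therefore no measure of stability. No paired analysis was possible because the series has 1 group. The limits are the unknown depth, 2 replicates, heights with no stated scaling between lists, and the lack of a control here.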

Other observations

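Regions that share both inputs with a higher region were found in all 4 sets. They numbered 157 of 4439 in the conservative set, 304 of 5167 in the larger set, 245 of 3779 in replicate 1 and 76 of 3280 in replicate 2. Of the 754 regions of the conservative set with a q-like value above 0.05, 156 were of this kind. A count of regions per gene, such as that of trbl, includes them.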
